A study of Mus musculus with 15 samples.

Results

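Endothelial cells of the mouse liver were sorted by the surface proteins CD157 and CD200. The comparison described here is that of CD157-CD200+ with CD157-CD200- cells, the pair labelled as different in CD200 and as negative for CD157 in both. Its members were taken by their titles and comprised 6 of the 15 arrays of the series, 3 for each subset. The 3 arrays of CD157+CD200+ cells entered the fit for the estimate of the spread and are set beside the pair where a gene's place among the subsets is described. The other 6 arrays, of populations named EC-SP and EC-MP, were not used here. The 3 groups used were thus CD157-CD200+, CD157+CD200+ and CD157-CD200-, all labelled as liver endothelial cells (EC) of Mus musculus and all from adult liver per the design text. They carry no genotype, strain, sex, treatment or time in the labels, and no age beyond adult. The design text speaks of independent samples, and the labels do not say whether they came from separate animals or how many animals were pooled. What the p-values weigh is therefore how far these samples differ among themselves, and that spread may be technical.

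The liver holds at least a pair of kinds of blood vessel lining. Sinusoids, the capillaries between the plates of hepatocytes, are lined by a fenestrated endothelium without a continuous basement membrane, which clears waste proteins and other large molecules from blood through scavenger and lectin receptors. Portal veins, hepatic arteries and central veins have a continuous endothelium on an elastic and collagenous wall, and it stores von Willebrand factor in Weibel-Palade bodies. CD200 is a membrane glycoprotein of the immunoglobulin family whose receptor on myeloid cells carries inhibitory signals, and CD157, encoded by Bst1, is a membrane-anchored enzyme of the NAD-consuming CD38 family. The title of the series places the sort in a search for endothelial stem cells marked by CD157.

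RNA was amplified, labelled with Cy3 and read on 1-colour Agilent arrays. Each value below is a relative log2 signal, which is log2 of a probe's processed signal after division by the 75th percentile of its array, so that 0 marks that percentile and 1 unit is a factor of 2. Between 57.3% and 66.7% of spots were well above background on the 9 arrays, and no spot was saturated. Across features, replicates of CD157-CD200+ cells had r of 0.976 to 0.983 and those of CD157-CD200- cells 0.967 to 0.977. Arrays with the same replicate number shared a slide, and each of the 3 slides held 1 array of every subset. Differences are CD157-CD200+ minus CD157-CD200- on the log2 scale, with the standard error (SE) of the fitted difference and n = 3 arrays a group, and a feature was called where limma's two-sided Benjamini-Hochberg adjusted p over all 23701 features was under 0.05. Group differences in a bulk sample can come from fewer cells of a type or from less RNA per cell, and these cannot be told apart here.

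RNA for the sort antigen followed the sort. Cd200 gave 3.41, 3.29 and 3.40 in CD157-CD200+ cells, against -4.27, -4.43 and -4.56 in CD157-CD200- cells. The CD157-CD200+ arrays lay within a narrow band, and none of the 3 CD157-CD200- arrays read the gene well above background. Its difference was 7.79 ± 0.16 [4.38] (adjusted p 1.3e-08), with 7.68, 7.72 and 7.96 on the 3 slides. Where a gene was dim on every array of a group, its fold is a lower bound. The bright group's mean was set against a floor taken per array, namely the dimmest spot that still counted as well above background or the gene's own signal where that was higher, and the adjusted p printed beside a bound comes from the fitted difference. Cd200 was by this measure at least 154-fold higher [4.38] in CD157-CD200+ cells. The size of a difference that reaches down to dim signals depended on the background correction: with normexp, which adds an offset of 50 to every signal, 130 of the 330 called genes of the lists and named sets had a fold smaller by more than 1.5 times and none a larger one. Where that holds for a gene described here, its log2 difference with normexp stands in square brackets after its difference or bound. Bst1, the gene of CD157, gave -2.65, -2.14 and -2.45 in CD157-CD200+ cells, against -3.62, -3.16 and -2.73 in CD157-CD200- cells, and was not well above background on any CD157-CD200- array. Its difference of 0.76 ± 0.25 did not pass the test (adjusted p 0.092), whereas the fit with the replicate number as a block gave an adjusted p of 0.028 and the fit without replicate 3 of CD157-CD200- cells 0.034 (difference 0.98). In CD157+CD200+ cells Bst1 averaged 2.57. Of the receptors for CD200, Cd200r1, Cd200r2, Cd200r3 and Cd200r4 were not tested, since none was well above background on all 3 arrays of a subset.

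The endothelial label held in both subsets. Cdh5, which encodes VE-cadherin of endothelial adherens junctions, gave 5.58, 5.40 and 5.0 in CD157-CD200+ cells, against 5.74, 5.37 and 5.32 in CD157-CD200- cells, and the groups overlapped. Its difference was -0.15 ± 0.22 (adjusted p 0.82, 95% confidence interval -0.65 to 0.35). Pecam1, the endothelial adhesion molecule CD31, gave 5.34, 5.47 and 5.57 in CD157-CD200+ cells, against 4.49, 4.57 and 4.78 in CD157-CD200- cells. All CD157-CD200+ arrays lay above all CD157-CD200- arrays, and the difference was 0.85 ± 0.16 (adjusted p 0.0078). Ptprc, the leukocyte antigen CD45, stayed low in both, with -2.30, -1.36 and -2.60 in CD157-CD200+ cells, against -1.91, -1.27 and -2.49 in CD157-CD200- cells, overlapping groups and an adjusted p of 0.9.

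Markers of large vessels and of sinusoids stood at opposite ends. Vwf, von Willebrand factor, gave 8.01, 8.02 and 8.10 in CD157-CD200+ cells, against 0.44, -0.62 and 0.41 in CD157-CD200- cells. The closest arrays of the groups lay several units apart. The difference was 7.96 ± 0.27, a 249-fold higher signal (adjusted p 2.2e-07). Fbln2, fibulin 2 of elastic fibres and basement membranes, gave 4.99, 4.99 and 4.94 in CD157-CD200+ cells, against -2.28, -1.57 and -2.14 in CD157-CD200- cells. The groups did not overlap, and its signal was 125-fold higher (6.97 ± 0.20 [5.55], adjusted p 1.3e-07). Stab2, the hyaluronan and scavenger receptor of sinusoids, went the other way with -0.26, 0.01 and -0.19 in CD157-CD200+ cells, against 6.89, 6.74 and 6.45 in CD157-CD200- cells. CD157-CD200- arrays all read Stab2 high, CD157-CD200+ arrays all read it near the 75th percentile, and the difference was -6.84 ± 0.19 (adjusted p 1.3e-07). Neither Stab2 nor Vwf was confined to a subset, since Stab2 was well above background on all 3 CD157-CD200+ arrays and Vwf on all 3 CD157-CD200- arrays.

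**Figure D1:**
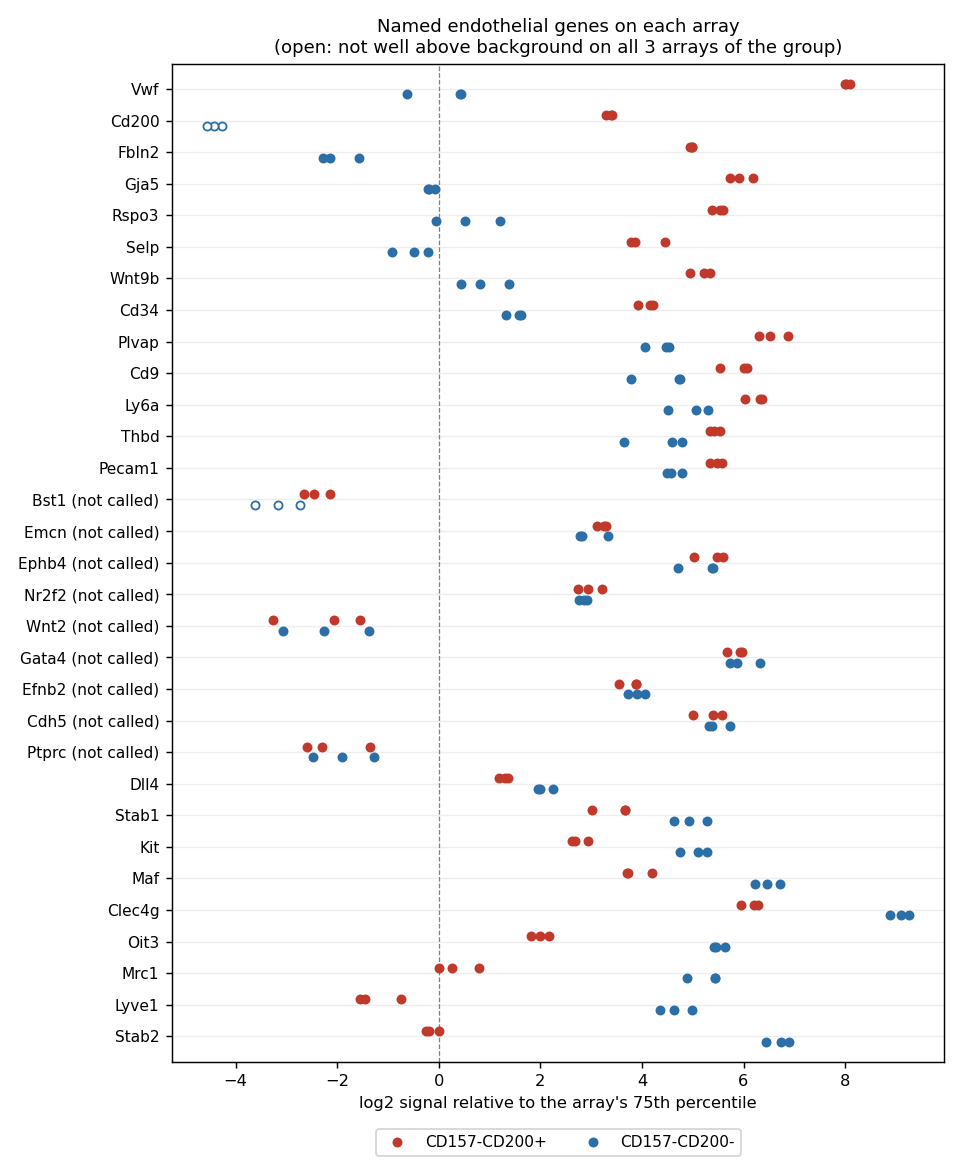
Relative log2 signal (x axis, 0 at the array's 75th percentile) of 31 genes, the leukocyte gene Ptprc among them, chosen with earlier results known. Each array has 1 point, with CD157-CD200+ in red above CD157-CD200- in blue. Points are open where at least 1 array of the group did not read the gene well above background. Vwf, Cd200 and Fbln2 at the top and Stab2, Lyve1 and Mrc1 at the bottom have widely separate groups, and Cdh5, Gata4 and Nr2f2 in the middle overlap.

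The promoter windows of the sort antigen Cd200, of the matrix gene Fbln2 and of the scavenger receptors Stab2 and Mrc1 are shown because these genes lie at the ends of the comparison. They run 5′ to 3′ on the gene's strand, from 250 bases before to 50 bases after the RefSeq start (RefSeq, build GRCm38.p6). The windows are chr16:45409004-45409303 on the minus strand for Cd200, chr6:91212514-91212813 on the plus strand for Fbln2, chr10:87007893-87008192 on the minus strand for Stab2 and chr2:14229164-14229463 on the plus strand for Mrc1. Capitals mark matches, on either strand, to 5 short motifs: GATA factors (AGATAA), the MAF core (TGCTGA), AP-1 (TGANTCA), RBPJ (TGGGAA) and ETS factors (CAGGAAG).
Cd200: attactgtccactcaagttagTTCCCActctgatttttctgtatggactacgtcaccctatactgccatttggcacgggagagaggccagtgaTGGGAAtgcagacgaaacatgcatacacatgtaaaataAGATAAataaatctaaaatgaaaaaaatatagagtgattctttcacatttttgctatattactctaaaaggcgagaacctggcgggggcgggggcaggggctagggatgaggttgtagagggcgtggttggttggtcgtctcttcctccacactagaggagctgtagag
Fbln2: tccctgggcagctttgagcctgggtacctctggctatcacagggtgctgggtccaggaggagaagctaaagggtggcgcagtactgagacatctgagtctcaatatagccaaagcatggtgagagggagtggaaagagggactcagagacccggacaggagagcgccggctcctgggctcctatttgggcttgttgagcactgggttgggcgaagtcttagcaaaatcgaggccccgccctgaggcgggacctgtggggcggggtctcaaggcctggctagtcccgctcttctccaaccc
Stab2: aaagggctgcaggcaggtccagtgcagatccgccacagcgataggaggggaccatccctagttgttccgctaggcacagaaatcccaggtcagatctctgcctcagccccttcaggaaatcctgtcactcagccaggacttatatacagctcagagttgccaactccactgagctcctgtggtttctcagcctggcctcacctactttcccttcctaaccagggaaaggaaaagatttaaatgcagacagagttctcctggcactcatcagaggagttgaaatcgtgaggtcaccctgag
Mrc1: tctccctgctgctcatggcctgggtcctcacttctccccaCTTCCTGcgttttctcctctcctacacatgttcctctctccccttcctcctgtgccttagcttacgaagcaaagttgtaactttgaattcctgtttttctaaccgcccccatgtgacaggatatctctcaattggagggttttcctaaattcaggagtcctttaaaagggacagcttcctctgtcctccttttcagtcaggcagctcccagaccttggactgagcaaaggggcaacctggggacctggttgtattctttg
The Cd200 window held a GATA match whose first base lies at -119 from the start and RBPJ matches at -157 and, on the opposite strand, at -229. The Mrc1 window held an ETS match on the opposite strand at -210, and the Fbln2 and Stab2 windows held none of the 5. Of all 32851 windows in the table, 11.2% held the GATA letters, 19.5% the MAF core, 7.81% AP-1, 25.6% RBPJ and 13.3% ETS, and no matches of different motifs overlapped in the windows printed. Of the 31 genes plotted by array, which were chosen with earlier results known, 22 were called, against 11.9% of all features, and 13 of these had a window. Among the 7 higher in CD157-CD200+ cells, GATA matched in Cd200, MAF in Wnt9b, AP-1 in Selp, RBPJ in Cd200 and Cd9 and ETS in Cd34. Among the 6 lower, MAF matched in Stab1 and ETS in Mrc1 and Stab1. A match is a string of letters and not a measured site.

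Markers of other liver cells were summed as linear signal in multiples of the array's 75th percentile. Hepatocyte markers were lower in CD157-CD200+ cells: their 19 genes summed to 19.6 to 20.7 in CD157-CD200+ cells and 53.0 to 61.5 in CD157-CD200- cells, all were above background on at least 1 array, and 16 of 17 tested were called lower, against 5.59% of all features. Albumin (Alb) was -1.48 ± 0.26 and Serpina1c, an antitrypsin, -2.41 ± 0.30. Haemoglobin alpha (Hba-a1), -3.71 ± 0.33 (adjusted p 5.8e-05), accounted for most of the erythroid sum of 1.36 to 1.73 in CD157-CD200+ cells and 10.8 to 21.9 in CD157-CD200- cells. Kupffer cell and macrophage markers summed to 27.4 to 37.7 in CD157-CD200+ cells and 41.0 to 55.0 in CD157-CD200- cells, with 5 of 12 tested called lower, among them Cd5l at -2.03 ± 0.38 and Clec4f at -1.29 ± 0.27 [-0.67]. Marco, a scavenger receptor of Kupffer cells, had a mean of 0.331 in CD157-CD200+ cells and 8.11 in CD157-CD200- cells, which made up most of the gap between the sums (-3.40 [-2.56], adjusted p 0.044). It was not called without any 1 of the CD157-CD200+ replicates or without replicate 1 of CD157-CD200- cells (adjusted p 0.064 to 0.13), nor with the block (0.053), with normexp (0.058), in the 6 arrays alone (0.072) or without a filter on dim probes (0.10), and its difference was -4.30 without replicate 2 and -2.08 without replicate 3 of CD157-CD200- cells. Timd4 and Cd163 were not above background on any of the 6 arrays, and Csf1r held most of that sum at a mean of 25.5 in CD157-CD200+ cells and 25.3 in CD157-CD200- cells.

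Stellate cell markers summed to 15.01 to 26.8 in CD157-CD200+ cells and 6.21 to 8.02 in CD157-CD200- cells. Rgs5, a pericyte regulator of G proteins (3.78), held most of that sum in CD157-CD200+ cells, with a mean of 15.6 in CD157-CD200+ cells and 1.1 in CD157-CD200- cells, and Pdgfrb, the receptor of pericytes for PDGF-B, was also called higher (4.02 [1.67], and 3.06 and 4.84 without replicates 1 and 3 of CD157-CD200- cells in turn), whereas Lrat (-1.96 [-0.67]), Dcn (-1.18) and Colec10 (-3.65 [-1.55]) were lower and Reln and Hand2 were not above background. Lrat and Dcn were not called without replicate 2 of CD157-CD200+ cells (adjusted p 0.11 and 0.076) or without replicate 1 (0.10 and 0.074) or 3 (0.11 and 0.070) of CD157-CD200- cells, which left 1 lower member, nor was Lrat without replicate 1 (0.12) or Dcn without replicate 3 (0.073) of CD157-CD200+ cells. Portal fibroblast and smooth muscle markers summed to 28.8 to 37.5 in CD157-CD200+ cells and 10.8 to 13.2 in CD157-CD200- cells, of which Cd34, also an endothelial gene, held a mean of 17.2 in CD157-CD200+ cells and 2.86 in CD157-CD200- cells. Acta2, smooth muscle actin, was 1.28 ± 0.27 (adjusted p 0.013), with an adjusted p of 0.053 without replicate 3 of CD157-CD200+ cells, which left 1 called member. Pdgfra and Dpt were not above background, but the 7 tested members not called were so on all arrays of both groups. Means in CD157-CD200+ and CD157-CD200- cells were 5.11 and 3.54 for Tagln, 2.59 and 1.53 for Thy1 and 2.08 and 0.505 for Myh11. Those of Col1a2 and Col3a1 were also higher, and those of Cnn1 (0.529 and 0.611) and Col1a1 (0.112 and 0.134) lower. The mesothelial sum of 23.3 to 31.2 in CD157-CD200+ cells and 1.57 to 1.97 in CD157-CD200- cells was in CD157-CD200+ cells nearly all Gpm6a, a membrane glycoprotein (5.82 [5.04]), at a mean of 25.9 in CD157-CD200+ cells and 0.488 in CD157-CD200- cells, while the keratin gene Krt19 had a mean of 0.853 in CD157-CD200+ cells and 1.11 in CD157-CD200- cells, with Msln, Wt1, Lrrn4 and Upk1b not above background. The B and plasma cell sum of 7.64 to 8.87 in CD157-CD200+ cells and 0.647 to 1.17 in CD157-CD200- cells was in CD157-CD200+ cells mostly Sdc1, syndecan 1 (4.76 [3.68]), at a mean of 7.90 in CD157-CD200+ cells and 0.295 in CD157-CD200- cells, with Ms4a1 and Jchain not above background. None of the tested T and NK cell (7), neutrophil (4) or cholangiocyte (12) markers was called, except 1 neutrophil marker without replicate 3 of CD157-CD200- cells. Their sums were 13.1 to 14.4 in CD157-CD200+ cells and 12.8 to 15.6 in CD157-CD200- cells for T and NK cells, 195 to 217 in CD157-CD200+ cells and 177 to 200 in CD157-CD200- cells for neutrophils, mostly Csf3r, and 5.96 to 8.39 in CD157-CD200+ cells and 7.51 to 10.7 in CD157-CD200- cells for cholangiocytes. Dendritic cell markers summed to 13.7 to 15.7 in CD157-CD200+ cells and 15.6 to 17.8 in CD157-CD200- cells, with Zbtb46 called lower (-1.21). Platelet markers summed to 5.41 to 6.68 in CD157-CD200+ cells and 6.26 to 7.35 in CD157-CD200- cells. Of these Pf4 was called lower (-2.99 [-1.53], adjusted p 0.023), but not without any 1 array except replicate 2 of CD157-CD200- cells (adjusted p 0.054 to 0.079). General leukocyte markers summed to 105 to 110 in CD157-CD200+ cells and 192 to 212 in CD157-CD200- cells, mostly Arhgdib (-0.95), and 1 in place of 2 was called lower without any 1 array except replicate 2 of CD157-CD200- cells. With the replicate number as a block, 4 general leukocyte markers, 4 fibroblast and smooth muscle markers and 2 erythroid markers were called in place of 2, 2 and 1, and 2 erythroid markers were also called without replicate 3 of CD157-CD200+ cells or replicate 2 of CD157-CD200- cells. The part of other cell types in the differences below was not tested.

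**Figure D2:**
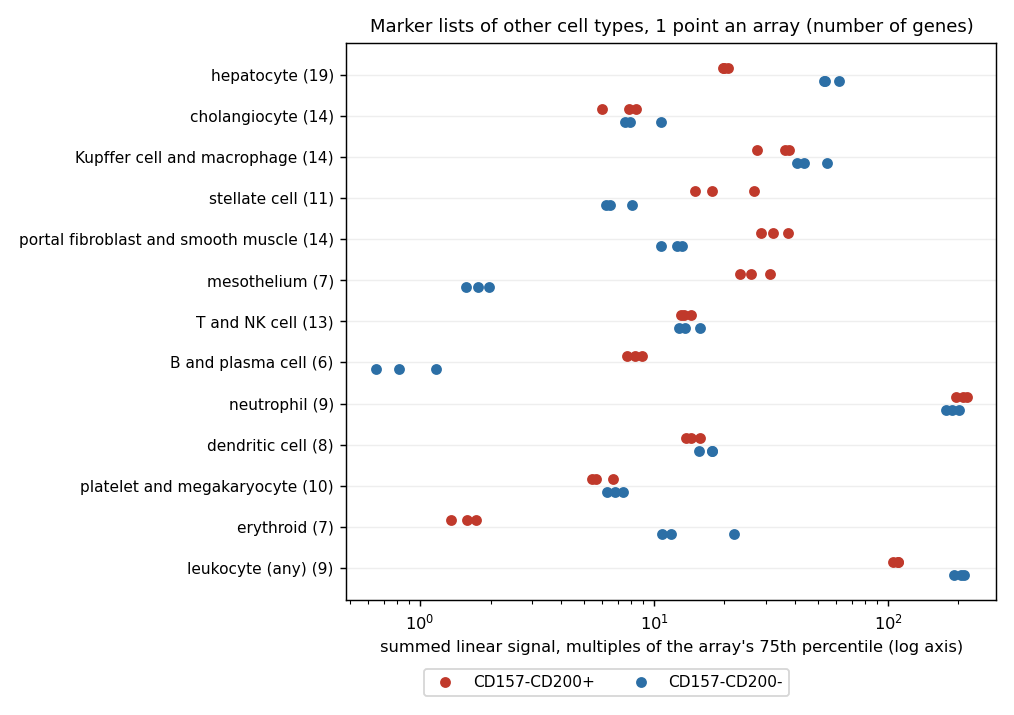
Summed linear signal of marker lists of other cell types (x axis, multiples of the array's 75th percentile, log scale) with 1 point an array, CD157-CD200+ in red above CD157-CD200- in blue, and the number of genes summed in brackets. Hepatocyte, Kupffer cell and erythroid sums lie lower in CD157-CD200+ cells, the stellate, fibroblast, mesothelial and B and plasma cell sums lie higher, and the T and NK cell sums overlap.

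Over all features, 2823 were called (11.9%), 1498 of them higher (6.32%) and 1325 lower (5.59%) in CD157-CD200+ cells, with a median difference over all features of 0.02. A gene symbol was attached to 2209 called features, of which 1164 were higher and 1045 lower. Every called feature moved the same way on each of the 3 slides. The arrays of the groups did not overlap for 6048 features (25.5%) and for 2822 of the called ones. Groups that do not overlap differ in the same direction on every slide by construction, so the shared direction adds nothing to these calls. The wide differences lay more often on the higher side: 569 called features were at least 4-fold higher and 329 at least 4-fold lower, and 133 were at least 16-fold higher and 35 at least 16-fold lower. The balance of all called features turned in other fits. It was 1324 higher and 1427 lower with normexp, and 1042 and 1170 with only probes above background on all 9 arrays. Wide differences were not counted in those fits. Of the features called higher 243 were dim on every CD157-CD200- array, and of those called lower 62 were dim on every CD157-CD200+ array. With the replicate number as a block, 5311 features were called, 2721 higher and 2590 lower, 2808 of them shared with the unblocked fit.

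**Figure D3:**
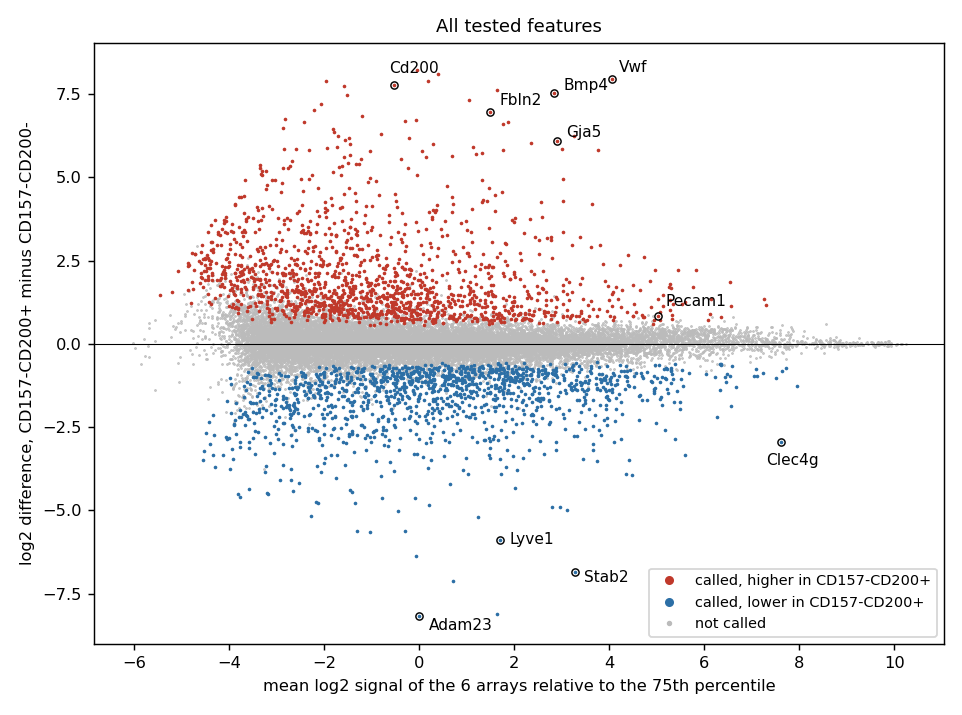
Log2 difference CD157-CD200+ minus CD157-CD200- (y axis) against the mean relative log2 signal (x axis, mean of the 6 arrays) of 23701 features, with called features coloured and some genes circled and named. Among the genes named in the text the differences run between 8.23 for Col8a1 and -8.19 for Adam23.

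The 15 called genes with the largest fitted increases were ranked by the fitted difference. For those dim on all CD157-CD200- arrays only a bound is known, so their order against each other and against measured genes is not established. Col8a1, a short-chain collagen of vessel walls, gave 4.10, 3.77 and 4.36 in CD157-CD200+ cells, against -2.86, -5.69 and -3.91 in CD157-CD200- cells. The spread was wide among CD157-CD200- arrays, only 1 of which was above background, and the groups stayed apart by over 6 units (8.23 ± 0.60 [5.39], adjusted p 1.7e-05). Without replicates 1 and 2 of CD157-CD200- cells in turn the difference of Col8a1 was 8.88 and 7.46. Cyp1b1, a cytochrome P450 that oxidises oestrogens and retinoids, gave 4.31, 4.02 and 4.06 in CD157-CD200+ cells, against -4.97, -5.22 and -1.11 in CD157-CD200- cells. Replicate 3 of CD157-CD200- cells stood well above the others, yet below every CD157-CD200+ array, and the difference was 7.90 ± 0.88 [5.01] (adjusted p 2.6e-04), or 7.30, 7.17 and 9.23 without replicates 1, 2 and 3 of CD157-CD200- cells in turn. Myrip, a myosin adaptor that holds Weibel-Palade bodies at the actin cortex, gave 2.06, 1.91 and 2.02 in CD157-CD200+ cells, against -5.75, -5.95 and -6.00 in CD157-CD200- cells. It was dim on all CD157-CD200- arrays and at least 59.5-fold higher [3.41] (adjusted p 1.3e-08). The same held for Samd5, at least 73.4-fold higher [3.92] (adjusted p 8.2e-07), for the adhesion molecule Ncam1, at least 68.4-fold [3.52] (adjusted p 5.5e-06, with its probes between 4.58 and 7.47), and for Sprr2b, a small proline-rich protein, at least 22.1-fold [2.53] (adjusted p 3.1e-07). Col6a3, a chain of microfibrillar collagen VI, gave 2.11, 2.33 and 2.21 in CD157-CD200+ cells, against -5.77, -3.73 and -4.38 in CD157-CD200- cells, without overlap (6.85 ± 0.42 [3.58]).

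The decreases are ranked in the same way. Adam23, a disintegrin without protease activity, gave -3.73, -4.20 and -4.35 in CD157-CD200+ cells, against 4.11, 3.88 and 4.30 in CD157-CD200- cells. It was bright on all CD157-CD200- arrays and above background on 1 CD157-CD200+ array (-8.19 ± 0.47 [-5.47], adjusted p 3.6e-06). Dnase1l3, which digests chromatin in blood, gave -2.93, -2.68 and -2.98 in CD157-CD200+ cells, against 4.63, 4.24 and 3.94 in CD157-CD200- cells, and Gatm, the first enzyme of creatine synthesis, gave -3.22, -2.94 and -3.60 in CD157-CD200+ cells, against 3.38, 2.59 and 3.37 in CD157-CD200- cells. Both were above background in both groups, with the groups more than 5 units apart (-7.14 ± 0.22 [-5.30] and -6.37 ± 0.27 [-4.28], adjusted p 1.4e-07 and 6.7e-07). Slc9a9, an endosomal sodium/proton exchanger, was -5.63 ± 0.38 [-3.21], and Esrrb, an orphan nuclear receptor, -5.61 ± 0.57 [-2.85]. P2ry1, a receptor for ADP, gave -1.54, -0.62 and -1.90 in CD157-CD200+ cells, against 3.82, 4.15 and 3.57 in CD157-CD200- cells, and was thus 36.7-fold lower. Enpep, an aminopeptidase that cleaves angiotensin, was -5.02 ± 0.23 [-3.17], Aass of lysine degradation -5.00 ± 0.23, and the adhesion protein Flrt1 -4.83 ± 0.21 [-3.28]. Ckap2l, a mitotic spindle protein, was -4.79 ± 0.85 [-2.56], with an adjusted p of 0.0046, and -5.65 without replicate 2 of CD157-CD200+ cells and -4.16 without replicate 2 of CD157-CD200- cells. Olfr1396, named as an odorant receptor, was dim on all CD157-CD200+ arrays and at least 19.6-fold lower [-1.88].

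Gene lists are described by how many of their tested members were called, beside the 6.32% called higher and 5.59% called lower over all features. The lists and their members were chosen with earlier results of these data known, so these counts are a description and not a test. Some genes are in several lists, such as Vwf in those of large-vessel, venous, matrix and coagulation genes, so the counts are not independent of each other. Testing only probes above background on all 9 arrays leaves out, by construction, genes dim in a subset, and where this stricter filter moved a pathway list's count by over 1.5 times its count is given too. Counts with the filter stand beside 1042 higher and 1170 lower of 20445 features. Counts with the replicate block stand beside 2721 higher and 2590 lower of 23701. Of 25 tested genes of large-vessel and continuous endothelium, 22 were higher and 0 lower, with a median difference of 1.78. Besides Vwf and Fbln2, Fbln5, which assembles elastic fibres, gave 3.50, 3.27 and 3.16 in CD157-CD200+ cells, against -2.88, -4.04 and -3.37 in CD157-CD200- cells. Mgp, an inhibitor of vessel calcification, gave 6.27, 5.95 and 5.60 in CD157-CD200+ cells, against 0.07, 0.46 and -0.27 in CD157-CD200- cells, and Edn1, the precursor of the vasoconstrictor endothelin 1, gave 5.42, 5.08 and 5.14 in CD157-CD200+ cells, against -2.21, -1.30 and -0.88 in CD157-CD200- cells. In all 3 the groups lay more than 5 units apart (6.74 ± 0.27 [4.33], 5.85 ± 0.26 and 6.68 ± 0.31 [5.65]). Tagln2 (0.16, adjusted p 0.81) and Ltbp4 (-0.14, adjusted p 0.89) were not called. Thbd, the thrombin-binding cofactor of the endothelial surface, was 1.1 ± 0.27 (adjusted p 0.028), and its adjusted p was 0.063 in the fit of the 6 arrays alone and 0.10, 0.067 and 0.077 without replicates 1, 2 and 3 of CD157-CD200+ cells in turn.

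Of 20 tested arterial genes 13 were called higher, or 7 with the stricter filter, with a median of 2.92. Gja5, the gap junction protein connexin 40, gave 6.19, 5.73 and 5.92 in CD157-CD200+ cells, against -0.20, -0.21 and -0.07 in CD157-CD200- cells. The groups lay far apart, and its signal was 68.8-fold higher (6.10 ± 0.18, adjusted p 1.3e-07), with its probes between 4.21 and 6.10 and their mean at 5.15. Jag1, a Notch ligand, gave 3.83, 4.20 and 3.60 in CD157-CD200+ cells, against 0.51, 0.53 and 0.56 in CD157-CD200- cells, again without overlap (3.34 ± 0.19). Stmn2 and the Wnt antagonist Dkk2 were dim on all CD157-CD200- arrays and at least 15.7-fold [1.85] and 8.74-fold higher [1.40] (adjusted p 8.8e-07 and 1.5e-06). Dll4, the Notch ligand of arteries and sprouting tips, went the other way with 1.19, 1.29 and 1.36 in CD157-CD200+ cells, against 1.96, 2.25 and 1.99 in CD157-CD200- cells. The groups did not overlap, the difference was -0.79 ± 0.17 (adjusted p 0.013), and it was not called without replicate 1 of CD157-CD200+ cells (-0.74, adjusted p 0.060), which left 0 lower members. Efnb2, the arterial ephrin, did not pass the test (-0.13 ± 0.18, adjusted p 0.8), and the groups overlapped. Gja4, another arterial connexin, did not pass it either (-0.17 ± 0.27, adjusted p 0.84). The blocked fit called 2 arterial genes lower in place of 1.

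Venous and central vein genes showed both directions, 14 of 20 tested higher and 3 lower (median 1.87). Selp, the leukocyte adhesion receptor P-selectin of Weibel-Palade bodies, gave 3.86, 4.45 and 3.78 in CD157-CD200+ cells, against -0.22, -0.92 and -0.49 in CD157-CD200- cells, with all arrays of the groups apart (4.57 ± 0.26 [3.96], adjusted p 3.3e-06). Rspo3, which sustains Wnt signals that zone the liver lobule, gave 5.59, 5.53 and 5.39 in CD157-CD200+ cells, against 1.20, -0.06 and 0.51 in CD157-CD200- cells, and Wnt9b, a Wnt ligand of central vein endothelium, gave 5.21, 5.34 and 4.95 in CD157-CD200+ cells, against 1.38, 0.44 and 0.81 in CD157-CD200- cells. Both were higher on every CD157-CD200+ array (4.95 ± 0.28 and 4.29 ± 0.25, adjusted p 3.7e-06 and 3.7e-06). Wnt2, the other Wnt ligand known from pericentral endothelium, gave -2.06, -3.27 and -1.56 in CD157-CD200+ cells, against -2.27, -3.07 and -1.37 in CD157-CD200- cells. Its groups overlapped and it did not pass the test (-0.06 ± 0.66, adjusted p 0.98, 95% confidence interval -1.53 to 1.42). Kit, the stem cell factor receptor, was lower, with 2.62, 2.68 and 2.95 in CD157-CD200+ cells, against 5.28, 4.75 and 5.10 in CD157-CD200- cells, and Plvap, the diaphragm protein of fenestrae and caveolae, was higher, with 6.51, 6.88 and 6.30 in CD157-CD200+ cells, against 4.54, 4.47 and 4.06 in CD157-CD200- cells. Neither had overlapping groups (-2.29 ± 0.20 and 2.21 ± 0.22, adjusted p 5.1e-05 and 1.4e-04). The vein regulators Nr2f2 (0.12 ± 0.19, adjusted p 0.84) and Ephb4 (0.20 ± 0.27, adjusted p 0.8) did not pass the test.

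**Figure D4:**
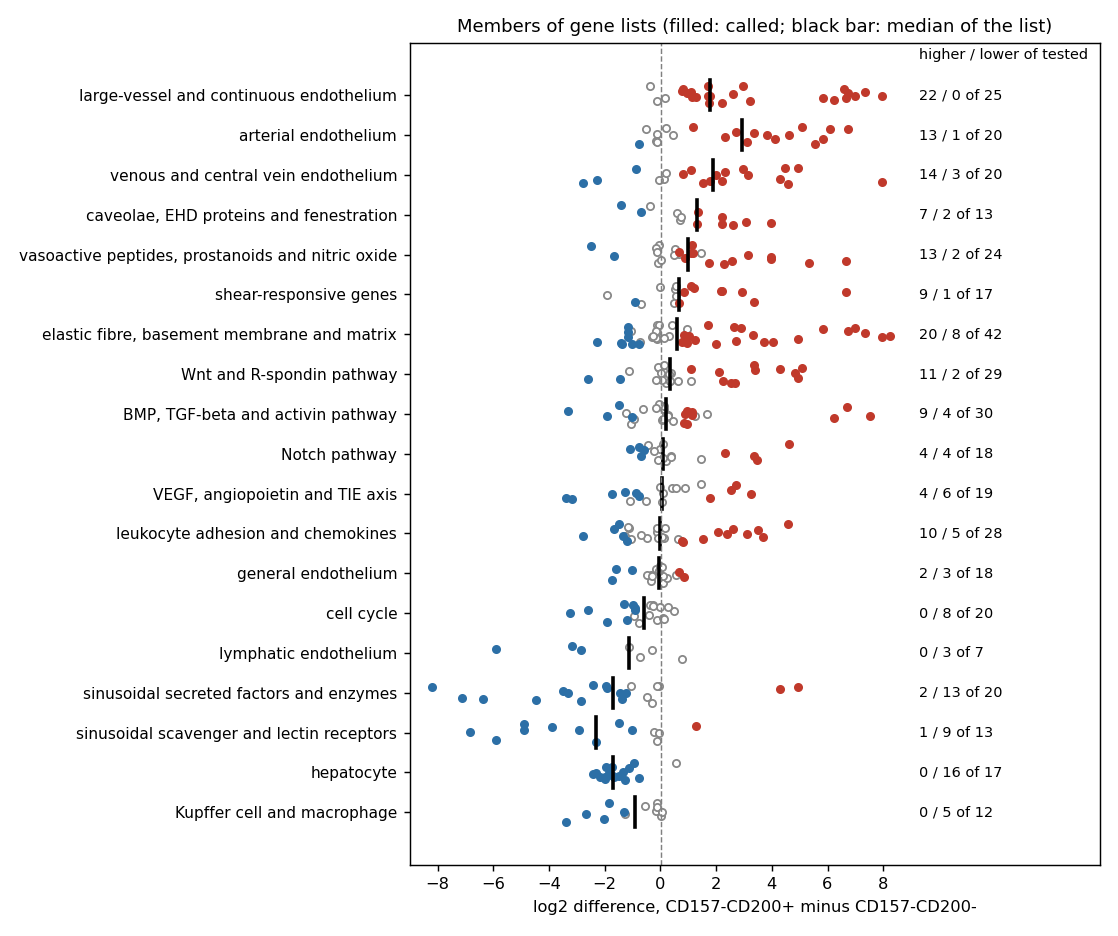
Log2 difference CD157-CD200+ minus CD157-CD200- (x axis) of each tested member of 19 gene lists, filled where called, with the list's median as a black bar and the called counts at the right. Large-vessel and arterial genes lie mostly above 0 and sinusoidal, hepatocyte and cell cycle genes mostly below it, while general endothelial genes spread around it.

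Of 42 tested elastic fibre, basement membrane and other matrix genes, 20 were higher and 8 lower (median 0.60). On the higher side Eln, elastin, gave 4.66, 4.40 and 5.13 in CD157-CD200+ cells, against -3.18, -2.98 and -1.67 in CD157-CD200- cells, more than 6 units between the closest arrays of the groups and 162-fold in the mean (7.34 ± 0.38 [5.70], adjusted p 2.1e-06). Of 21 collagen genes tested, 6 were higher (2 with the stricter filter) and 4 lower. Col14a1, which binds collagen fibrils, was 5.41 ± 0.25 [2.65] (its probes between 3.06 and 5.41), and Col18a1, a basement membrane collagen, 2.72 ± 0.25 [1.20]. Col13a1, a transmembrane collagen, was lower at -4.03 ± 0.44 [-1.82] (adjusted p 2.2e-04). Ltbp4 (-0.14), Col1a2 (0.30, adjusted p 0.54) and Col6a2 (0.55, adjusted p 0.32) did not pass the test. Fibroblast markers Pdgfra and Dpt were not above background in either group. The markers Thy1, Col1a1, Col1a2, Col3a1, Tagln, Myh11 and Cnn1 were above background on all arrays of both groups and were not called. With the replicate block 4 fibroblast and smooth muscle markers were called higher in place of 2. Acta2 and the stellate and pericyte genes Rgs5 and Pdgfrb were higher beside these matrix genes, and the stellate genes Lrat, Dcn and Colec10 were lower.

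Matrix receptors and proteases followed no single direction. Among integrins 4 of 16 tested were higher and 3 lower. Itga3, a laminin receptor chain, gave 0.57, 0.54 and 0.86 in CD157-CD200+ cells, against -3.11, -2.57 and -3.19 in CD157-CD200- cells, without overlap (3.62 ± 0.21 [1.90], adjusted p 3.5e-06). Itgb4, a beta chain of hemidesmosomes, was 2.04 ± 0.25 [1.24]. Itga9 and Itga8 were lower at -2.85 ± 0.27 and -2.04 ± 0.32, and Itgb1, the common beta chain, did not pass the test (0.03 ± 0.20, adjusted p 0.97). ADAM, MMP and TIMP genes had 5 of 21 tested members higher and 3 lower. Timp2, a metalloproteinase inhibitor, was 2.37 ± 0.29, and Mmp14, a membrane-bound collagenase, -1.76 ± 0.24. Adamts7, dim on all CD157-CD200+ arrays, was at least 9.29-fold lower [-1.24] (adjusted p 2.4e-04). The count of higher members of this list was 9 with the replicate block, and 3 without any 1 of the CD157-CD200+ replicates or without replicate 1 of CD157-CD200- cells.

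Genes for vascular tone were called higher more often than lower, while those for clotting went both ways. Of 24 tested vasoactive genes 13 were higher and 2 lower, with a median of 0.99 that became 0.68 with dim genes at their bound. Gucy1a1, a subunit of the nitric oxide receptor, was dim on all CD157-CD200- arrays and at least 13.0-fold higher [1.61] (adjusted p 8.0e-06). Npr3, the natriuretic peptide clearance receptor, gave 1.13, 1.08 and 0.96 in CD157-CD200+ cells, against -5.87, -3.29 and -3.72 in CD157-CD200- cells, and Ace, which makes angiotensin II, gave 3.74, 4.12 and 2.91 in CD157-CD200+ cells, against 0.17, -0.55 and -0.80 in CD157-CD200- cells. The groups did not overlap in either (5.35 ± 0.54 [2.54] and 3.98 ± 0.44, adjusted p 1.4e-04 and 2.4e-04), and Npr3 was 4.56 without replicate 1 of CD157-CD200- cells. Of 20 tested coagulation genes 6 were higher and 4 lower. Entpd1, the surface ATP- and ADP-splitting enzyme CD39, gave 3.34, 2.96 and 3.63 in CD157-CD200+ cells, against -2.69, -3.02 and -2.41 in CD157-CD200- cells, 64.6-fold apart in the mean (6.01 ± 0.25 [4.37], adjusted p 5.7e-07). Plat, tissue plasminogen activator, was 2.92 ± 0.27 [1.32]. Tfpi, the tissue factor inhibitor, gave 3.30, 3.13 and 3.08 in CD157-CD200+ cells, against 5.20, 4.94 and 5.21 in CD157-CD200- cells, and F8, coagulation factor VIII, gave 3.59, 3.35 and 3.60 in CD157-CD200+ cells, against 4.81, 4.51 and 4.93 in CD157-CD200- cells. Both were lower on every CD157-CD200+ array (-1.94 ± 0.16 and -1.24 ± 0.21, adjusted p 4.5e-05 and 0.0034). Among shear-responsive genes 9 of 17 tested were higher and 1 lower, or 10 and 2 with the replicate block, and 2 were lower without any 1 of the CD157-CD200+ replicates. Nqo1, a quinone reductase, was 3.35 ± 0.21, and the shear factor Klf2 was -0.01 ± 0.22 and did not pass the test (adjusted p 0.99).

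Leukocyte adhesion genes and chemokines went both ways, 10 of 28 tested higher and 5 lower (8 with the replicate block), with a median of -0.01. Cxcl12, a chemokine that retains leukocytes and progenitors, gave 4.29, 4.62 and 4.08 in CD157-CD200+ cells, against 1.62, 0.80 and 1.22 in CD157-CD200- cells. The groups stayed apart (3.12 ± 0.25, adjusted p 2.9e-05). Il33, an alarmin of vessel nuclei, gave 1.72, 1.38 and 1.42 in CD157-CD200+ cells, against -0.34, -0.80 and -0.53 in CD157-CD200- cells (2.07 ± 0.19), and Cd34, a sialomucin that selectins bind, gave 4.22, 3.92 and 4.15 in CD157-CD200+ cells, against 1.62, 1.58 and 1.33 in CD157-CD200- cells (2.59 ± 0.18). Il6, an inflammatory cytokine, was 3.70 ± 0.25 [1.36] and was above background on 1 of 3 CD157-CD200- arrays. Interferon-stimulated genes leaned lower, 5 of 22 tested against 1 higher, with Oas1a at -1.32 ± 0.16, Rsad2 at -1.37 ± 0.19 and Gbp2, the exception, at 0.89 ± 0.15. The blocked fit called 8 lower and 2 higher, and 2 were higher without replicate 3 of CD157-CD200- cells. Of 10 MHC class II genes 2 were called higher, H2-DMb1 (1.02 ± 0.23 [0.26], adjusted p 0.016) and H2-Ob (1.75 ± 0.43 [0.54], adjusted p 0.026). With the block 4 were called and none with normexp or the stricter filter, against 1 without replicate 1 and 0 without replicate 2 of CD157-CD200+ cells and 0 without replicate 3 of CD157-CD200- cells.

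Ligands of the BMP and TGF-beta family changed in opposite directions. Bmp4 gave 6.87, 6.64 and 6.28 in CD157-CD200+ cells, against -0.84, -0.65 and -1.32 in CD157-CD200- cells, and Tgfb2 gave 3.04, 3.18 and 2.92 in CD157-CD200+ cells, against -4.09, -3.10 and -3.74 in CD157-CD200- cells. CD157-CD200+ arrays all lay far above CD157-CD200- arrays (7.53 ± 0.25 [6.65] and 6.69 ± 0.26 [4.21], adjusted p 1.8e-07 and 4.7e-07), with probes of Bmp4 between 5.02 and 7.53. Bmp2 gave 3.87, 4.18 and 3.78 in CD157-CD200+ cells, against 7.43, 7.31 and 7.07 in CD157-CD200- cells, and Bmp6 gave 1.91, 1.98 and 2.11 in CD157-CD200+ cells, against 3.92, 3.94 and 3.87 in CD157-CD200- cells. Through these ligands liver endothelium sets the hepcidin output of hepatocytes. Both were lower on every CD157-CD200+ array (-3.32 ± 0.23 and -1.91 ± 0.15, adjusted p 1.3e-05 and 2.9e-05). Fstl1, a secreted BMP modulator, was 6.24 ± 0.36. Over the pathway 9 of 30 tested were higher and 4 lower (median 0.18), and the TGF-beta co-receptor Eng did not pass the test (-0.05 ± 0.38, adjusted p 0.97).

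In the Wnt pathway 11 of 29 tested were higher and 2 lower (median 0.34), or 4 and 1 with the stricter filter. Besides Rspo3 and Wnt9b, the called genes with the lowest adjusted p were the antagonists Dkk2 and Frzb and the transcription factor Lef1. The last 2 were dim on all CD157-CD200- arrays and at least 10.7-fold [1.53] and 2.21-fold higher [0.52] (adjusted p 7.8e-05 and 1.7e-05). In the Notch pathway 4 of 18 tested were higher (2 with the stricter filter) and 4 lower, with 1 lower when replicate 1 of CD157-CD200+ cells was left out. Hey1, a Notch target, gave 2.63, 2.26 and 2.92 in CD157-CD200+ cells, against 0.10, 0.28 and 0.54 in CD157-CD200- cells, without overlap (2.30 ± 0.22, adjusted p 8.7e-05). The ligand Jag2 was 4.61 ± 0.47 [1.69] (5.25 without replicate 3 of CD157-CD200- cells) and the receptor Notch3 3.48 ± 0.45 [1.56], both above background on 1 of 3 CD157-CD200- arrays, while Notch1 did not pass the test (0.19 ± 0.26, adjusted p 0.81).

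The VEGF and angiopoietin axis had 4 of 19 tested members higher (7 with the block) and 6 lower. Vegfc, the ligand, gave 3.48, 3.55 and 3.43 in CD157-CD200+ cells, against 0.59, 0.82 and 0.86 in CD157-CD200- cells, and Flt4, its receptor VEGFR3, gave 1.34, 1.35 and 1.18 in CD157-CD200+ cells, against 4.77, 4.51 and 4.14 in CD157-CD200- cells. The ligand was higher and the receptor lower on every CD157-CD200+ array (2.73 ± 0.17 and -3.19 ± 0.19, adjusted p 6.1e-06 and 5.8e-06). Kdr, VEGFR2, was -1.75 ± 0.20, and Angpt2, the TIE2 antagonist of remodelling vessels, -3.37 ± 0.24 [-2.70]. Tie1 (0.09 ± 0.25, adjusted p 0.92) and Flt1 (0.07 ± 0.17, adjusted p 0.91) did not pass the test. Guidance genes had 8 of 28 tested members higher (4 with the stricter filter) and 5 lower (8 with the block). Sema7a, a membrane-anchored semaphorin, was dim on all CD157-CD200- arrays and at least 13.7-fold higher [1.71] (adjusted p 1.0e-05). Plxnc1, its receptor, gave 1.95, 2.09 and 1.13 in CD157-CD200+ cells, against 5.74, 5.16 and 4.61 in CD157-CD200- cells, and thus went the opposite way (-3.45 ± 0.36, adjusted p 1.7e-04). In the insulin-like growth factor axis 5 of 12 tested were higher (3 with the stricter filter) and 1 lower (4 with the block). Igf2, the ligand, was dim on all CD157-CD200- arrays and at least 39.5-fold higher [2.82] (adjusted p 8.7e-06), and Igfbp3, a binding protein, at least 36.7-fold [2.91] (adjusted p 8.1e-07). The receptor genes Igf2r and Insr were 1.36 ± 0.19 and 1.20 ± 0.18, while Igfbp7, another binding protein, did not pass the test (-0.30 ± 0.15, adjusted p 0.3).

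Caveolar and EHD genes were mostly higher, 7 of 13 tested, with 2 lower and a median of 1.32, or 1 lower without any 1 array except replicate 2 of CD157-CD200+ cells. Cavin3, a caveolar coat protein, gave 2.12, 2.42 and 2.02 in CD157-CD200+ cells, against -1.59, -1.92 and -1.79 in CD157-CD200- cells, without overlap (3.95 ± 0.25 [2.97], adjusted p 7.8e-06). Ehd2, which anchors caveolae at the membrane, was 3.06 ± 0.25, and Ehd4 2.60 ± 0.19. Ehd3, a member of the same family, was lower, with 4.36, 4.14 and 4.20 in CD157-CD200+ cells, against 5.73, 5.54 and 5.70 in CD157-CD200- cells (-1.42 ± 0.17, adjusted p 3.4e-04). Lipid-handling genes had 4 of 21 tested higher and 6 lower, with 2 higher when replicate 2 of CD157-CD200+ cells or replicate 1 of CD157-CD200- cells was left out. Gpihbp1, which moves lipoprotein lipase to the capillary lumen, gave 5.44, 5.10 and 4.98 in CD157-CD200+ cells, against 7.66, 7.27 and 7.19 in CD157-CD200- cells, and Cd36, a fatty acid and scavenger receptor, gave 3.16, 2.94 and 2.79 in CD157-CD200+ cells, against 5.37, 5.56 and 4.88 in CD157-CD200- cells. Both were lower on every CD157-CD200+ array (-2.20 ± 0.20 and -2.31 ± 0.22, adjusted p 7.8e-05 and 8.9e-05).

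Among solute carriers 5 of 18 tested were higher and 3 lower (8 and 5 with the block). Slc40a1, the iron exporter ferroportin, gave 0.01, -0.48 and -0.24 in CD157-CD200+ cells, against 3.95, 3.45 and 3.61 in CD157-CD200- cells, 15-fold lower in the mean and without overlap (adjusted p 1.8e-06). Slc16a9, a monocarboxylate carrier, was 3.95 ± 0.28 [2.10], and Slc6a6, the taurine carrier, 2.32 ± 0.29. Among ABC transporters 5 of 17 tested were higher (8 with the block) and 3 lower. Abcb1a, a drug efflux pump of vessel barriers, gave 0.97, 1.42 and 1.19 in CD157-CD200+ cells, against -2.58, -1.81 and -2.98 in CD157-CD200- cells, higher on every CD157-CD200+ array (3.65 ± 0.28 [2.15], adjusted p 2.5e-05), and the conjugate exporters Abcc3 and Abcc4 were lower at -2.23 ± 0.17 and -1.49 ± 0.18. Gap, tight and adherens junction genes had 5 of 25 tested higher (9 with the block) and 2 lower, or 1 lower without any 1 array except replicate 2 of CD157-CD200- cells. Beside Gja5, the connexin gene Gjc1 was 2.99 ± 0.28 [1.77] and the adhesion molecule Jam2 1.88 ± 0.27. Cldn5, the claudin of endothelial tight junctions, was lower, with 4.29, 4.23 and 4.36 in CD157-CD200+ cells, against 6.09, 5.65 and 5.95 in CD157-CD200- cells (-1.60 ± 0.17, adjusted p 1.9e-04).

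Sinusoidal genes made up the other side of the comparison. Of 13 tested scavenger and lectin receptors 9 were lower and 1 higher, with a median of -2.31, and the count of 9 held whichever array was left out. Besides Stab2, Lyve1, a hyaluronan receptor, gave -1.46, -1.55 and -0.74 in CD157-CD200+ cells, against 4.63, 4.98 and 4.36 in CD157-CD200- cells. Every CD157-CD200+ array lay below the 75th percentile and every CD157-CD200- array far above it, a 59.9-fold lower signal in the mean (-5.90 ± 0.25 [-4.98], adjusted p 7.6e-07). Mrc1, the mannose receptor, gave 0.26, 0.79 and 0.01 in CD157-CD200+ cells, against 5.44, 5.44 and 4.89 in CD157-CD200- cells, and Clec1b, the podoplanin receptor CLEC-2, gave 0.58, 0.66 and 0.31 in CD157-CD200+ cells, against 5.79, 5.34 and 5.11 in CD157-CD200- cells. Neither had overlapping groups (-4.90 ± 0.24 and -4.90 ± 0.22, adjusted p 1.7e-06 and 8.9e-07). Clec4g, the sinusoidal lectin LSECtin, gave 6.28, 6.20 and 5.95 in CD157-CD200+ cells, against 9.27, 9.09 and 8.88 in CD157-CD200- cells, with a difference of -2.93 ± 0.19 (adjusted p 7.6e-06). Stab1, the relative of Stab2, gave 3.68, 3.67 and 3.01 in CD157-CD200+ cells, against 5.28, 4.92 and 4.63 in CD157-CD200- cells, a smaller shift (-1.50 ± 0.27, adjusted p 0.0055). Macrophages also use some of these receptors, Mrc1 and Stab1 among them. Of the Kupffer markers 5 of 12 tested were lower beside them, with the sums given above, while Csf1r had a mean of 25.5 in CD157-CD200+ cells and 25.3 in CD157-CD200- cells and Cd68 of 3.82 in CD157-CD200+ cells and 4.28 in CD157-CD200- cells, and the hepatocyte sum was lower as well. Scarb2 (-0.05, adjusted p 0.96) and Scarb1 (-0.23, adjusted p 0.66) did not pass the test, and Cd209b was not above background on all arrays of any subset.

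Secreted factors and enzymes of sinusoids had 13 of 20 tested members lower, with a median of -1.69, and the 2 higher members were the central vein genes Rspo3 and Wnt9b. Oit3, a secreted protein enriched in liver sinusoids, gave 1.99, 1.81 and 2.16 in CD157-CD200+ cells, against 5.64, 5.41 and 5.46 in CD157-CD200- cells, without overlap (-3.51 ± 0.18, adjusted p 2.0e-06). Cyp4b1, a cytochrome P450, gave 4.01, 3.94 and 3.94 in CD157-CD200+ cells, against 6.73, 6.79 and 6.94 in CD157-CD200- cells, lower on every CD157-CD200+ array (-2.86 ± 0.16). Of lymphatic genes, 3 of 7 tested were lower, and these were Lyve1, Flt4 and the integrin chain Itga9. The blocked fit, and the fit without replicate 3 of CD157-CD200- cells, also called 1 higher in place of 0. The lymphatic regulator Prox1 did not pass the test (-0.31 ± 0.25, adjusted p 0.59), and Pdpn and Reln were not above background on all arrays of any subset.

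Transcription factors that set vessel type were higher more often than lower, 11 against 4 of 31 tested, and the count of lower ones was 2 without replicate 1 of either subset. Gata4, which maintains sinusoidal identity in mouse liver, gave 5.97, 5.93 and 5.68 in CD157-CD200+ cells, against 6.32, 5.87 and 5.73 in CD157-CD200- cells. The groups overlapped and the difference did not pass the test (-0.12 ± 0.21, adjusted p 0.87, 95% confidence interval -0.59 to 0.36). Gata6, of the same family, gave 1.14, 0.80 and 0.42 in CD157-CD200+ cells, against -1.73, -1.52 and -1.73 in CD157-CD200- cells, higher on every CD157-CD200+ array (2.44 ± 0.22 [1.57], adjusted p 6.2e-05). Maf, a factor of sinusoidal endothelium, gave 3.73, 3.71 and 4.20 in CD157-CD200+ cells, against 6.45, 6.23 and 6.72 in CD157-CD200- cells, lower on every CD157-CD200+ array (-2.59 ± 0.25, adjusted p 9.1e-05). Tbx3 was dim on all CD157-CD200- arrays and at least 9.67-fold higher [1.24] (adjusted p 8.1e-07), and Foxc1, a forkhead factor, was 2.37 ± 0.21 [1.25]. Bmx, listed with them as a tyrosine kinase of arteries, was 3.81 ± 0.26.

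General endothelial genes centred on 0, with 2 of 18 tested higher, 3 lower and a median of -0.04. Those called lower were Kdr, Cldn5 and the guidance receptor Robo4 (-1.01 ± 0.21, adjusted p 0.011), and 1 was called higher without any 1 array except replicate 3 of CD157-CD200- cells. Emcn, endomucin, gave 3.30, 3.25 and 3.12 in CD157-CD200+ cells, against 3.33, 2.79 and 2.82 in CD157-CD200- cells, with overlapping groups (0.24 ± 0.20, adjusted p 0.59). Mcam (-0.01 ± 0.15, adjusted p 0.99) and Ptprb (-0.03 ± 0.16, adjusted p 0.96) did not pass the test.

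Enzymes and receptors of extracellular purines changed in both directions, 4 higher and 6 lower of 12 tested in the list that holds Bst1, with 1 higher under the stricter filter. The enzymes that split ATP and AMP at the cell surface were higher: Entpd1, given above, and Nt5e, the AMP-splitting enzyme CD73, dim on all CD157-CD200- arrays and at least 12.8-fold higher [1.70] (adjusted p 5.1e-05). The receptors P2ry1, given above, and P2rx4, an ATP-gated channel, were lower, the second with 1.30, 1.26 and 1.45 in CD157-CD200+ cells, against 3.63, 3.38 and 3.43 in CD157-CD200- cells (-2.14 ± 0.17, adjusted p 2.6e-05). The UTP and ATP receptor P2ry2 was 4.70 ± 0.49 [1.88], higher (3.99 without replicate 1 of CD157-CD200- cells), and above background on 1 CD157-CD200- array.

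Genes used as progenitor markers were higher in 7 of 14 tested and lower in 1, which was Kit (median 0.96). Ly6a, the surface antigen Sca-1, gave 6.36, 6.02 and 6.32 in CD157-CD200+ cells, against 5.06, 4.51 and 5.31 in CD157-CD200- cells, and Cd9, a tetraspanin, gave 6.01, 5.54 and 6.07 in CD157-CD200+ cells, against 4.74, 3.78 and 4.72 in CD157-CD200- cells. Both were higher in CD157-CD200+ cells and without overlap (1.27 ± 0.23 and 1.45 ± 0.28, adjusted p 0.0047 and 0.0074). Aldh1a1, which makes retinoic acid, was 1.32 ± 0.23, and the efflux pump Abcg2 1.21 ± 0.22. Cell cycle genes had 8 of 20 tested lower and none higher (median -0.59), or 5 lower without replicate 2 or without replicate 3 of CD157-CD200+ cells. Birc5, survivin, gave -2.05, -2.21 and -2.34 in CD157-CD200+ cells, against 0.06, -0.41 and 1.51 in CD157-CD200- cells, without overlap and with replicate 3 of CD157-CD200- cells highest (-2.59 ± 0.42 [-1.62], adjusted p 0.0027). Ccna2, cyclin A2, was dim on all CD157-CD200+ arrays and at least 6.17-fold lower [-0.97] (adjusted p 1.4e-04). Mcm6 (0.11 ± 0.25, adjusted p 0.9) and Mcm4 (0.08 ± 0.20, adjusted p 0.92) did not pass the test. Of 19 quiescence genes 4 were higher and 3 lower, among them Igf2 and its neighbour H19 (1.96 ± 0.32 [1.03]) higher and Cdkn1c, a cyclin-kinase inhibitor, lower (-0.88 ± 0.16). Without replicate 1 of CD157-CD200+ cells 2 were higher and 1 lower, and 1 was lower without replicate 2 of those cells or without any 1 of the CD157-CD200- replicates.

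Genes of the response to cell isolation gave few calls in the fit without the block. Of 26 immediate-early and dissociation genes 2 were higher and 1 lower, a share near the 11.9% of all features. With the replicate block 9 were higher and 2 lower, beside 2721 higher and 2590 lower of all 23701 features in that fit. Without any 1 of the CD157-CD200+ replicates or replicate 1 of CD157-CD200- cells 1 was higher, and none was lower without replicate 1 or 3 of CD157-CD200+ cells or replicate 2 or 3 of CD157-CD200- cells. Egr1 (0.04 ± 0.15, adjusted p 0.95) did not pass the test, and Nr4a2, an orphan nuclear receptor, was 1.12 ± 0.22 (adjusted p 0.0083). Of 21 glycolysis genes 3 were higher and none lower, or 7 and 1 with the block and 1 lower without replicate 2 of CD157-CD200- cells, with Pfkfb3, the glycolytic activator of endothelium, at 0.92 ± 0.18. Of 14 targets of NRF2 4 were higher and 1 lower, or 6 and 3 with the block, and 2 were higher without replicate 1 or without replicate 2 of CD157-CD200+ cells. Hmox1, haem oxygenase 1, was the lower one (-0.91 ± 0.17, adjusted p 0.007).

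The 3 subsets can be read as a sort with a CD157 step, from CD157-CD200+ to CD157+CD200+, and a CD200 step, from CD157-CD200- to CD157-CD200+. Both steps share the CD157-CD200+ arrays, so the difference between them was tested as 1 contrast, CD157-CD200+ minus the mean of the other subsets, which is positive where CD157-CD200+ cells lie above that mean. The CD157 step alone, CD157+CD200+ minus CD157-CD200+, gave 250 called features (1.05%). The contrast was called for 1000 features (4.22%), 551 above (2.32%) and 449 below (1.89%), or 2237, 1101 above and 1136 below, with the replicate block. These counts depended on the arrays of the shared subset: the total was 495, 550 and 619 without replicates 1, 2 and 3 of CD157-CD200+ cells in turn, with 289, 311 and 357 above and 206, 239 and 262 below.

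Among the 8 genes with the largest positive contrast, 4 peaked in CD157-CD200+ cells. The contrasts were ranked as fitted, without bounds. Where a subset was near background, as CD157-CD200- cells were for Igf2, the size and order of the contrasts are not established. Alpl, the tissue-nonspecific alkaline phosphatase, gave 1.52, 1.91 and 1.22 in CD157-CD200+ cells, -3.77, -2.81 and -3.23 in CD157+CD200+ cells and -4.91, -3.03 and -4.04 in CD157-CD200- cells. CD157-CD200+ cells were highest on every slide, and the other subsets overlapped, with a contrast of 5.18 ± 0.38 (adjusted p 8.6e-05) and a CD157 difference of -4.82 ± 0.44 (adjusted p 0.0013). Igf2 gave 1.18, 1.40 and 1.63 in CD157-CD200+ cells, -2.33, -1.93 and -1.13 in CD157+CD200+ cells and -5.60, -5.45 and -4.08 in CD157-CD200- cells, without overlap between any of the subsets and highest in CD157-CD200+ cells (4.83 ± 0.37, adjusted p 1.0e-04). Tmem178 and Aif1l, an actin-binding protein, had contrasts of 4.64 ± 0.43 and 4.41 ± 0.32 (adjusted p 3.4e-04 and 7.3e-05) with CD157 differences of -4.32 ± 0.50 and -2.89 ± 0.37 (adjusted p 0.004 and 0.0065). The other 4, Col8a1, Samd5, Cyp1b1 and Bmp4, had a large CD200 difference, given above, and no called CD157 difference. Bmp4 averaged 6.60 in CD157-CD200+ cells, 6.03 in CD157+CD200+ cells and -0.93 in CD157-CD200- cells, with a contrast of 4.05 ± 0.21 (adjusted p 1.9e-05) and a CD157 difference of -0.57 ± 0.25 (adjusted p 0.56). Col8a1 had a contrast of 4.40 ± 0.52 and a CD157 difference of -0.56 ± 0.60 (adjusted p 0.0012 and 0.99).

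The 8 genes with the largest negative contrast were lower in both CD200+ subsets than in CD157-CD200- cells. The same limit on size and order holds where a subset was near background, as CD157-CD200+ cells were for Adam23. Adam23 averaged -4.09 in CD157-CD200+ cells, -5.13 in CD157+CD200+ cells and 4.10 in CD157-CD200- cells, with a contrast of -3.57 ± 0.40 (adjusted p 9.6e-04). Dnase1l3 averaged -2.86 in CD157-CD200+ cells, -3.15 in CD157+CD200+ cells and 4.27 in CD157-CD200- cells (-3.42 ± 0.19), and Gatm -3.25 in CD157-CD200+ cells, -2.86 in CD157+CD200+ cells and 3.11 in CD157-CD200- cells (-3.38 ± 0.23). Stab2, Enpep, Slc9a9 and Lyve1 followed with -3.30 ± 0.16, -3.24 ± 0.20, -3.21 ± 0.33 and -3.20 ± 0.22. Their CD157 differences were -0.23 ± 0.19, 1.47 ± 0.23, 0.79 ± 0.38 and 0.49 ± 0.25, of which that of Enpep passed the test (adjusted p 0.93, 0.015, 0.65 and 0.7). Chst2, a sulfotransferase of selectin ligands, completed the set at -3.07 ± 0.15 with a CD157 difference of 1.79 ± 0.18 (adjusted p 0.002) and its probes between -4.34 and -3.34 for the CD200 difference. Among the lists, the contrast was called above for 12 of 25 large-vessel genes and 12 of 20 arterial genes and below for 7 of 13 scavenger receptors and 9 of 20 sinusoidal secreted factors, against 2.32% above and 1.89% below over all features. The contrast contains the CD200 difference on the same arrays, so these counts are not a separate result from the list counts above.

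**Figure D5:**
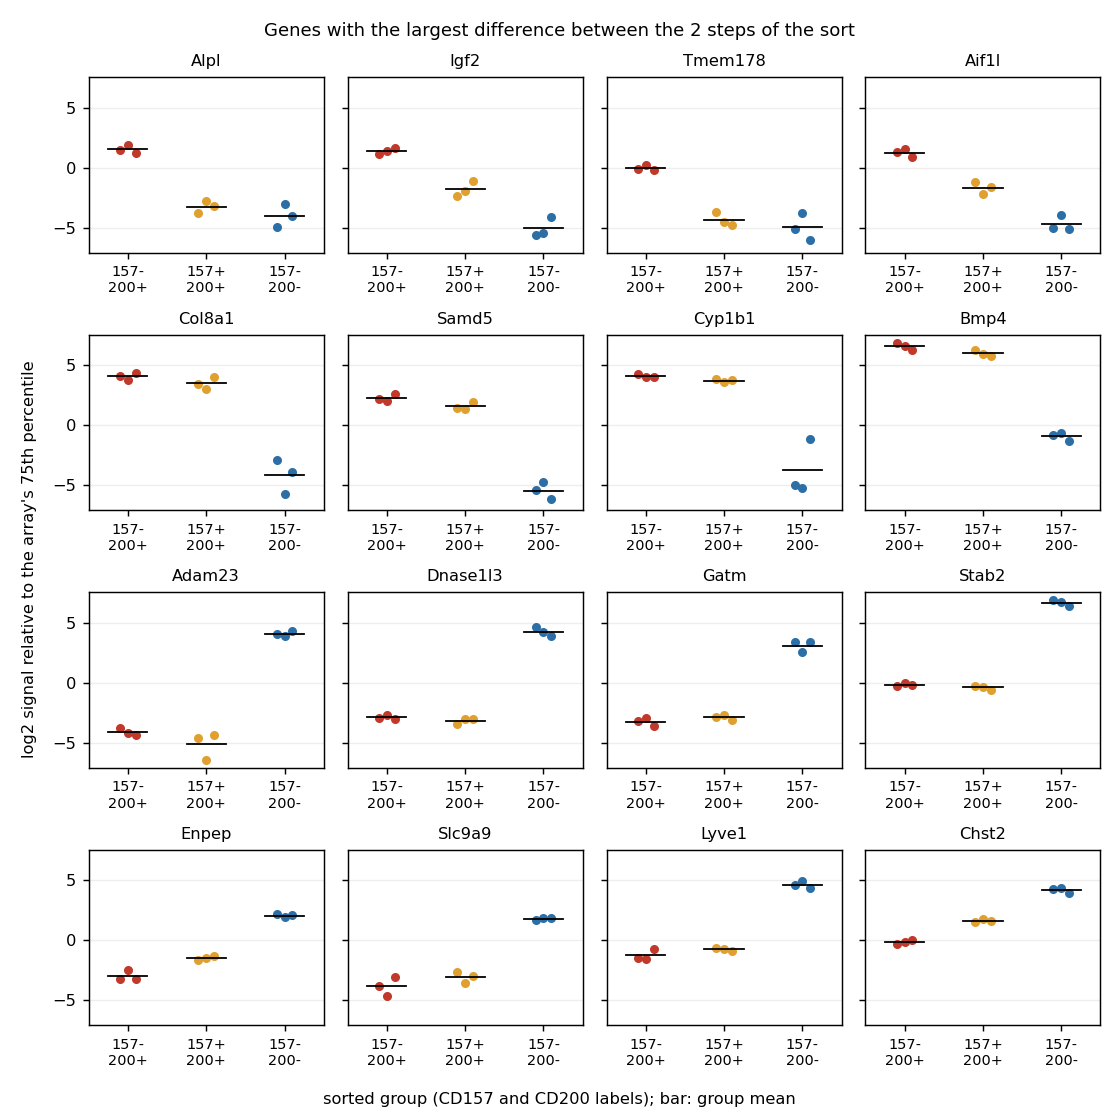
Relative log2 signal (y axis) on each array of CD157-CD200+, CD157+CD200+ and CD157-CD200- cells for the 8 genes with the largest contrast in each direction. Alpl, Igf2, Tmem178 and Aif1l are highest in CD157-CD200+ cells, and Stab2 and Lyve1 are higher in CD157-CD200- cells than in both other subsets.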

How the data were processed

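The arrays were scanned and their spots quantified with Agilent Feature Extraction 11.5.1.1, per the file headers, and the deposited processed signal, an intensity already corrected for background, was used. Per the labels' protocols, RNA was purified with RNeasy and amplified with Ovation Pico WTA V2. The authors' deposited value table differed from it by a single factor for each array (7.71 to 10.1) and served as an alternative.

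Outlier spots were left out, log2 signals were scaled to each array's 75th percentile, and the brightest probe of a gene, by its mean over the 9 arrays, was kept. Of 55681 probes 28058 carried a symbol, from 3 annotation revisions. The 23701 features (14363 with a symbol) that some subset showed well above background on its 3 arrays were fitted in limma 3.58.1 (R 4.3.3) with eBayes, and p-values were adjusted by Benjamini-Hochberg over all of them. The number of arrays limits the precision. The fit was tested on simulated data in which arrays of a slide shared no deviation, so arrays paired by slide were not covered. Sums, motif matches and plots were made with Python 3.11.15, pandas 2.3.3, numpy 2.4.6, scipy 1.17.1 and matplotlib 3.10.9.

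The replicate number coincided with slide and scan. Deviations from the group means correlated between 0.27 and 0.63 in the 9 same-numbered pairs and between -0.49 and 0.03 in the 18 others, so the numbers pair the arrays, and a fit with the number as a block was run beside the unblocked one. Other alternatives were the 6 arrays alone, normexp background correction, quantile normalization, the authors' table, other filters on dim probes, the mean of a gene's probes, trended and robust eBayes, and each array left out.

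Named are 31 chosen genes, the leukocyte gene Ptprc among them, and the 15 called genes with the largest difference each way. Also named are up to 5 called and 2 bright uncalled members of each pathway list and the called and 3 brightest members of other lists. For the contrast of the 3 subsets 8 genes each way are named. The members and lists were chosen with earlier results of these data known. Promoters were matched by symbol, 19 of the 31 genes having a window. A few list members are not reported here and were left out of the lists.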

Additional observations from a re-analysis of the deposited data

How the results depend on the processing

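The count of 2823 called features kept within 1.5 times of its value (2010 to 3010) under every alternative but 1. More features were called lower than higher with normexp and with only probes above background on all 9 arrays, the reverse of the main fit. With the replicate number as a block, which pairs the arrays by slide, 5311 features were called, 2721 higher and 2590 lower. The contrast of the 3 subsets, called for 1000 features, gave 2237 with the replicate block (1101 above, 1136 below) and 615 without a filter on dim probes (362 above, 253 below), where 36786 features were tested. Leaving out 1 array at a time gave 495 to 984 for the contrast, 289 to 576 above and 206 to 408 below. Apart from the cases named in the report, the block changed no call of a named gene.

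Of 714 list members and named genes no called one changed direction under any alternative. The normexp fit, which used the median signal because the mean signal was not in the files used here, left 676 of them on their side of the threshold, the values deposited by the authors 703, quantile normalization 699, trended and robust eBayes 691, the mean of probes 689, no filter 667 and the block 621, of which 91 gained and 2 lost a call. The 6 arrays alone left 670 of 695, the filter to probes above background on all 9 arrays 578 of 588, and leaving out 1 array 653 to 670 of 714. Among 330 called ones normexp made 130 folds smaller by more than 1.5 times, and the mean of probes 6 smaller and 2 larger. Genes near background in a subset have only bounds there, and 3 arrays a group limit what small differences can be seen.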
